A study of Arabidopsis thaliana with 4 samples.

Results

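A group of 5 genes, 4 of them known for their response to sugar supply or darkness and 1 for a starch-cutting enzyme, was examined in the basal inflorescence stem of *Arabidopsis thaliana*, *BGAL4* (AT5G56870), *BXL1* (AT5G49360), *BT1* (AT5G63160), *AMY1* (AT4G25000) and *DIN11* (AT3G49620). They were picked by locus from the 234 genes in the tables of transcripts called different between wild-type Col-0 plants and the *msil2/4* double mutant. Of the 5, *BGAL4*, *BXL1* and *BT1* stood in the table of 78 down-regulated genes, and *AMY1* and *DIN11* in the table of 156 up-regulated genes. Polyadenylated RNA was sequenced in 4 libraries, 2 per genotype, from untreated plants grown in long days. The *msil2/4* plants carry T-DNA insertions in the genes of both RNA-binding Musashi-like proteins MSIL2 and MSIL4 and were obtained by crossing, while the sample labels call the genotype a knockdown. Each mutated gene was represented by 1 insertion line. *MSIL2*, *MSIL4* and 13 marker genes of fibers, xylem, phloem, epidermis and green tissue were in neither table, so neither the genotype nor the tissue could be checked on these values. The unit is RPKM, read number scaled by transcript length and by the mapped reads of the library.

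When sugar runs short or light is withheld, plant cells switch on a set of genes that release carbon from walls, reserves and proteins, a response in which the kinase SnRK1 takes part, and sugars repress many of them. *BGAL4* encodes a beta-galactosidase and *BXL1* a beta-xylosidase and alpha-arabinofuranosidase, enzymes that trim the side chains of wall polysaccharides. *BT1* encodes a protein with BTB and TAZ domains, of a small family of regulatory scaffold proteins. *AMY1* encodes a secreted alpha-amylase, which cuts starch. *DIN11* encodes a member of the 2-oxoglutarate and iron-dependent oxygenases and takes its name, dark inducible, from its rise in darkness.

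The 5 genes split into 3 that were lower and 2 that were higher in *msil2/4* stems. The transcripts of the wall hydrolases *BGAL4* and *BXL1* and of *BT1* were 5.66-, 3.38- and 3.42-fold lower in the mean of the *msil2/4* libraries than in that of the Col-0 libraries. Those of *AMY1* and *DIN11* were 5.06- and 26.0-fold higher. In every one of the 5 genes, both *msil2/4* libraries lay beyond both Col-0 libraries, as they did in 99.1% of the 234 listed genes. This direction is what placed each gene in its table, so it is given as a description with no test, and with 2 libraries per genotype an exact two-sided permutation test could not go below p = 0.333. In whole stem tissue, fewer cells of a type and less RNA per cell cannot be told apart.

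Among the genes that were lower, *BGAL4* was at 102 and 169 RPKM in Col-0 replicates 1 and 2 and at 19.1 and 28.8 RPKM in *msil2/4* replicates 1 and 2. The mean of Col-0 was 136 ± 47.6 RPKM (SD, n = 2), and that of *msil2/4* was 24.0 ± 6.85 RPKM (SD, n = 2). Replicate 2 was the higher library in both genotypes, and even the closest pair of libraries differed 3.54-fold between genotypes. The difference on the scale of log2(RPKM + 1) was -2.43 (standard error 0.42 from limma), which put the gene in place 12 of 78 among the decreases. The 1 RPKM added before the logarithm makes the change of a weakly expressed gene look smaller than it was. Pairs of values for a genotype are given here and in what follows with replicate 1 first.

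*BXL1* was at 118 and 97.5 RPKM in Col-0, against 30.4 and 33.3 RPKM in *msil2/4*. Its libraries were the most even of the 5 genes in the mutant, where the higher one exceeded the lower one 1.10-fold, against 2.93-fold between the nearest libraries of the genotypes. The difference was -1.72 on the log2 scale (standard error 0.32), in place 50 of 78 and near the median of the down-regulated table, -1.80. *BT1* was at 140.2 and 132 RPKM in Col-0, against 34.2 and 45.5 RPKM in *msil2/4*. It was thus steady between the Col-0 libraries, 1.06-fold apart, and lower in *msil2/4*, by 2.90-fold between the nearest libraries. Its difference of -1.76 (standard error 0.33) took place 45 of 78.

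Of the genes that were higher, *AMY1* was at 17.5 and 18.6 RPKM in Col-0, against 107 and 76.0 RPKM in *msil2/4*. The Col-0 libraries differed 1.06-fold, and the nearest libraries of the genotypes differed 4.08-fold. The difference was 2.26 on the log2 scale (standard error 0.34), in place 59 of 156 and close to the median of the up-regulated table, 2.03. Places and median among the increases depend on the added 1 RPKM, which ranks genes weakly expressed in Col-0 lower than their fold change would. *DIN11* was at 3.57 and 4.86 RPKM in Col-0, against 35.6 and 184 RPKM in *msil2/4*. Both mutant libraries were far above Col-0, but they differed 5.17-fold from each other, and only 4 of the 234 listed genes had a larger difference between the *msil2/4* replicates on the log2 scale. The difference between genotypes, 3.99 on that scale (standard error 0.79), took place 20 of 156. It was 2.82 without *msil2/4* replicate 2 and 5.16 without *msil2/4* replicate 1, so the size of the increase depended on the library while its direction did not. The sequence also sets a limit here. The *DIN11* transcript shares an exact run of at least 75 bases, the length of a read, with the adjacent gene AT3G49630, within a stretch of 149 aligned bases of 95.3% identity, and reads from that stretch could have come from either gene. AT3G49630 is in neither table. No such run was found elsewhere in the genome for the other 4 genes.

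**Figure D1:**
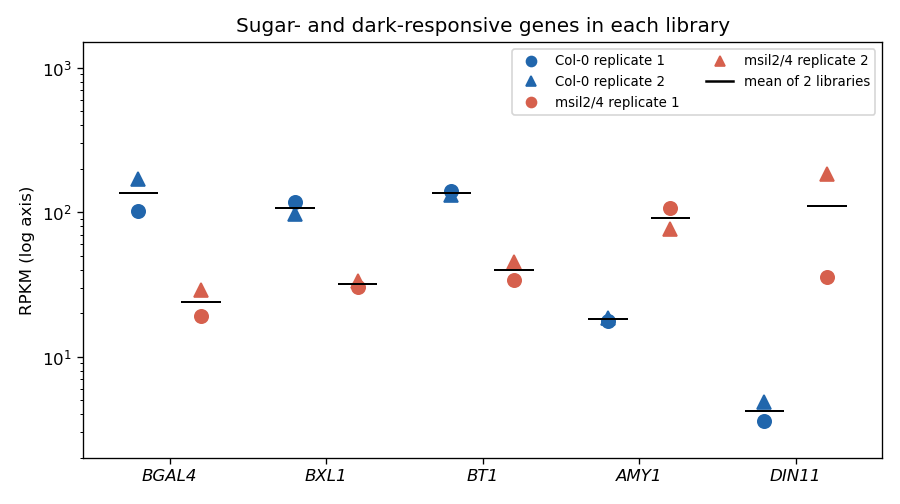
RPKM of each gene (logarithmic axis) in the 2 Col-0 libraries (blue) and the 2 *msil2/4* libraries (red), with circles for replicate 1, triangles for replicate 2 and a bar at the mean of 2 libraries. *BGAL4*, *BXL1* and *BT1* lay between 97.5 and 169 RPKM in Col-0 and between 19.1 and 45.5 RPKM in *msil2/4*, while *AMY1* and *DIN11* moved the other way, *DIN11* with widely spaced *msil2/4* libraries.

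RPKM is scaled by length, so levels may also be set side by side between genes. In Col-0, *BT1*, *BXL1* and *BGAL4* were the 3 highest in both libraries, between 97.5 and 169 RPKM, followed by *AMY1* and then *DIN11*. The order within the leading 3 was not stable, as *BGAL4* was the lowest of them in Col-0 replicate 1 and the highest in Col-0 replicate 2, so *BGAL4* did not differ from either beyond its spread, while both libraries of *BT1* were above both of *BXL1*. *AMY1* and *DIN11* were apart from them and from each other in both libraries. In *msil2/4* the order turned over. *AMY1* and *DIN11* were the upper 2 in each library, with *AMY1* first in replicate 1 and *DIN11* first in replicate 2, followed in both by *BT1*, *BXL1* and *BGAL4*. In replicate 1, *DIN11* at 35.6 RPKM was barely above *BT1* at 34.2 RPKM. *BT1* and *BXL1*, with libraries at 34.2 and 45.5 RPKM against 30.4 and 33.3 RPKM, and *BXL1* and *BGAL4*, with 30.4 and 33.3 RPKM against 19.1 and 28.8 RPKM, were hardly separated at their nearest libraries. The summed level of *BGAL4*, *BXL1* and *BT1* was 17.1 and 17.0 times that of *AMY1* and *DIN11* in the Col-0 libraries, and 0.587 and 0.414 times in the *msil2/4* libraries.

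The genes within each direction did not all move alike. *BT1* and *BXL1* ran side by side, with a ratio of *BT1* to *BXL1* levels of 1.19 and 1.36 in the Col-0 libraries and 1.12 and 1.37 in the *msil2/4* libraries, although both transcripts were more than 3-fold lower in the mutant. *BGAL4* departed from them between the Col-0 replicates, where its ratio to *BXL1* was 0.865 and 1.74. In *msil2/4* the ratio of *BGAL4* to *BXL1* was 0.630 and 0.865. *AMY1* and *DIN11* shared only the direction of their difference from Col-0. The ratio of *AMY1* to *DIN11* was 4.90 and 3.84 in the Col-0 libraries, 3.01 in *msil2/4* replicate 1 and 0.414 in *msil2/4* replicate 2. From replicate 1 to replicate 2 of the mutant, *AMY1* went to 0.711 times its level and *DIN11* to 5.17 times. The opposing genes crossed over, with a *BXL1* to *AMY1* ratio of 6.73 and 5.23 in Col-0 and 0.284 and 0.438 in *msil2/4*.

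Profiles over the 4 libraries were compared as the root mean square difference of log2(RPKM + 1) after the mean of each gene was subtracted, a measure in which 0 means parallel profiles. Since it rests on 4 libraries and on genes selected for the same contrast, it is a description. *BT1* and *BXL1* were 0.12 apart, and *BGAL4* was 0.45 from *BT1* and 0.52 from *BXL1*. *AMY1* and *DIN11* were 1.33 apart, and *DIN11* was only in place 141 of 233 among the genes nearest to *AMY1*. Nearest to both *BXL1* and *BT1* was *BXL2*, the sister gene of *BXL1*, at 0.07 in each case. *BXL1* was then followed by the transcription factor gene *BZIP4* and the DnaJ-domain gene AT1G72416, at 0.08 and 0.11. After *BXL2*, the pectin methylesterase gene *PME16* and *BXL1* itself were nearest to *BT1*, at 0.10 and 0.12.

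*BGAL4* had other neighbors. The closest was the homeodomain transcription factor gene *HAT2*, at 0.10, with 86.0 and 134 RPKM in Col-0, against 14.7 and 26.6 RPKM in *msil2/4*, and the phosphotransfer protein gene *AHP4* and the transcription factor gene *ERF073* followed at 0.26 and 0.30. These genes were also higher in Col-0 replicate 2 than in Col-0 replicate 1. Around *AMY1* were *ALIS5*, which encodes a subunit of lipid flippases, the AAA-ATPase gene AT3G28580 and the cysteine-rich receptor-like kinase gene *CRK7*, at 0.10, 0.12 and 0.12, all higher in *msil2/4* replicate 1 than in *msil2/4* replicate 2. *ALIS5* was at only 0.78 and 0.72 RPKM in Col-0, against 7.65 and 5.44 RPKM in *msil2/4*. At such levels the added 1 RPKM shrinks the change, so its closeness to *AMY1* holds for log2(RPKM + 1) and not for RPKM. The neighbors of *DIN11* were farther off. They were the jacalin-related lectin gene *JAL33*, the ER body gene *NAI2* and the lectin gene *JAL34*, at 0.32, 0.38 and 0.43. As for *DIN11*, their levels in *msil2/4* were higher in replicate 2, with *JAL34* at 16.3 and 59.9 RPKM and *NAI2* at 14.7 and 36.9 RPKM. In Col-0, *JAL33* was at 0.03 and 0.24 RPKM and *NAI2* at 0.38 and 0.85 RPKM, below *DIN11*, so the same limit applies to them.

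**Figure D2:**
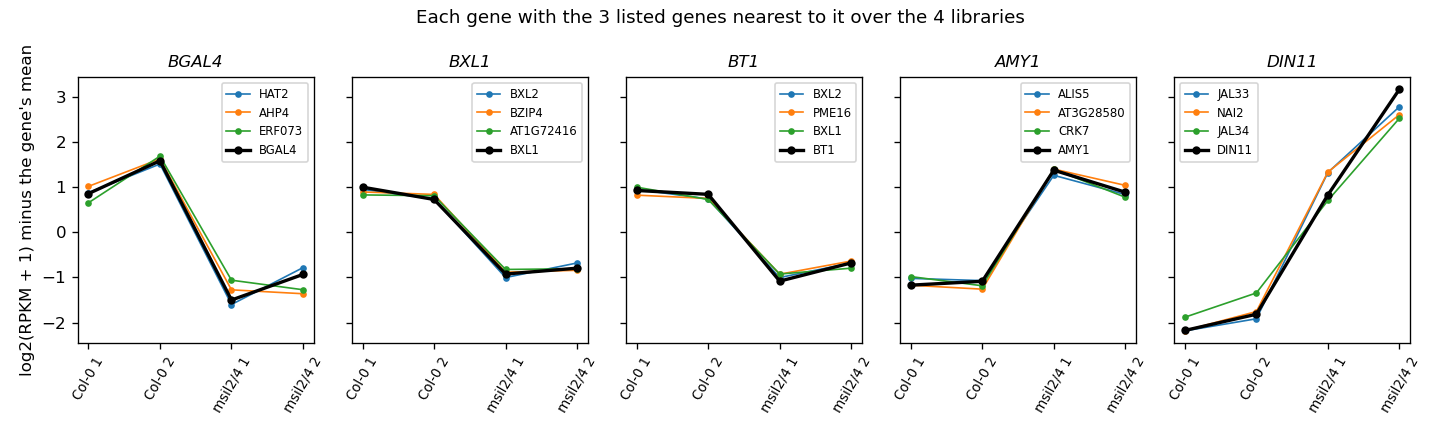
Level in each of the 4 libraries on the scale of log2(RPKM + 1), minus the gene's own mean, for each of the 5 genes (black) and the 3 listed genes nearest to it (colored lines). *BXL1* differs little between replicates, *BT1* rises slightly between the *msil2/4* replicates, and *BGAL4* rises between the replicates of both genotypes. Between the *msil2/4* replicates, *AMY1* drops and *DIN11* climbs.

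The relatives of the 5 genes were then followed in lists of known family members and responsive genes. Of 8 dark-inducible *DIN* genes, 3 were in a table and they did not share a direction. *STR15* (AT4G35770), also known as *SEN1* and *DIN1*, which encodes a sulfurtransferase-like protein and is known to rise in senescing and darkened leaves, was at 23.0 and 28.1 RPKM in Col-0, against 2.59 and 8.50 RPKM in *msil2/4*. *RFS6* (AT5G20250), also known as *DIN10*, which encodes a protein of the raffinose synthase family, was at 122 and 105 RPKM in Col-0 and at 14.3 and 39.5 RPKM in *msil2/4*. Both were thus lower in the mutant, by 4.60- and 4.21-fold in the means, where *DIN11* was higher. All 3 were higher in *msil2/4* replicate 2 than in replicate 1, by 3.28-, 2.76- and 5.17-fold. For *STR15* and *RFS6* this brought replicate 2 nearer to Col-0, and for *DIN11* it took replicate 2 farther from Col-0. The other 5, *ASN1* (*DIN6*) among them, were in neither table. Between the Col-0 libraries, these genes differed by 1.36-fold or less.

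Of 27 genes induced by sugar starvation, *BGAL4*, *BXL1* and *BT1* were in the down-regulated table, none was in the up-regulated table and 24 were in neither table. Over both lists together, 35 genes, only 6 were in a table and so had values, *BGAL4*, *BXL1*, *BT1* and *DIN11* among them. Of these 6, 5 were called lower at an adjusted p under 0.05 from limma (33.3% of all 234 listed genes were called lower). The 1 called higher was *DIN11* (65.8% of all listed genes were called higher). The median difference of the 6 genes in a table was -1.97 on the log2 scale. The lists were written with results of these data known and all listed genes had been selected for a difference, so these counts describe the tables and are no test. Genes outside both tables missed the authors' limit on the fold change (1.5 on the log2 scale), missed their limit on significance or were removed by their filter on low values, and their levels were not analysed here. The paper describes the filter on low values as dropping transcripts below 1 RPKM in a library. The 234 listed genes still hold 95 values under 1 RPKM, so how that filter was applied is not known. Of 10 genes induced by sugar, such as the glucose-6-phosphate translocator gene *GPT2*, none was in a table.

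In the families of the wall hydrolases, the only other listed members moved with *BGAL4* and *BXL1*. Of 17 *BGAL* genes, *BGAL1* (AT3G13750) was at 532 and 411 RPKM in Col-0, against 86.8 and 145 RPKM in *msil2/4*, a difference of -2.05 on the log2 scale (standard error 0.40). Its level was 2.43 to 5.22 times that of *BGAL4* over the 4 libraries, and unlike *BGAL4* it was lower in replicate 2 than in replicate 1 of Col-0. The other 15 were in neither table. Of 7 *BXL* genes, *BXL2* (AT1G02640) was at 106 and 91.0 RPKM in Col-0 and at 26.6 and 33.5 RPKM in *msil2/4*, a difference of -1.68 (standard error 0.33). The ratio of *BXL1* to *BXL2* stayed between 0.996 and 1.14 in the 4 libraries, so that both genes were lower to nearly the same extent. Their coding sequences are 68.2% identical over aligned bases, those of *BGAL4* and *BGAL1* are 70.4% identical, and neither pair shares an exact run of 75 bases. *BT1* was the only one of 5 *BT* genes in a table, *BT2* included among the 4 in neither. *AMY1* was the only one of 20 genes of starch breakdown, and the other alpha-amylase genes *AMY2* and *AMY3* were in neither table.

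**Figure D3:**
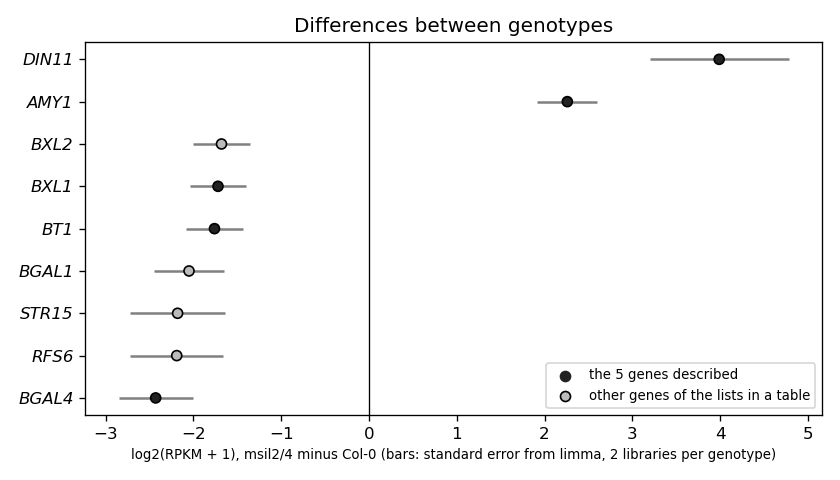
Difference between genotypes, *msil2/4* minus Col-0, on the scale of log2(RPKM + 1), with its standard error from limma as bars (2 libraries per genotype), for the 5 genes (black) and the other members of the lists that were in a table (grey). The 7 genes left of 0 lie between -2.43 and -1.68, and *AMY1* and *DIN11* stand at 2.26 and 3.99.

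The agreement of replicates differed from gene to gene. Over all 234 listed genes the median absolute difference between replicates on the log2 scale was 0.45 for Col-0 and 0.39 for *msil2/4*. *BXL1*, at -0.27 and 0.13 for replicate 2 minus replicate 1 in Col-0 and *msil2/4*, was below both medians. *BT1*, at -0.09 and 0.40, and *AMY1*, at 0.09 and -0.49, were below the median in Col-0 only. *BGAL4*, at 0.73 and 0.57, was above both, and *DIN11*, at 0.36 and 2.34, was above that of *msil2/4*. In the mutant, *BGAL4*, *BXL1*, *BT1* and their 4 listed relatives were all higher in replicate 2, that is, nearer to Col-0, as were 45 of the 78 down-regulated genes. At the stated depth of 30000000 reads per library, were all of them mapped, the lowest value of *DIN11*, 3.57 RPKM, would correspond to about 165 reads and a counting error of about 7.79%, and the lowest value of each other gene to 844 reads or more.

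**Figure D4:**
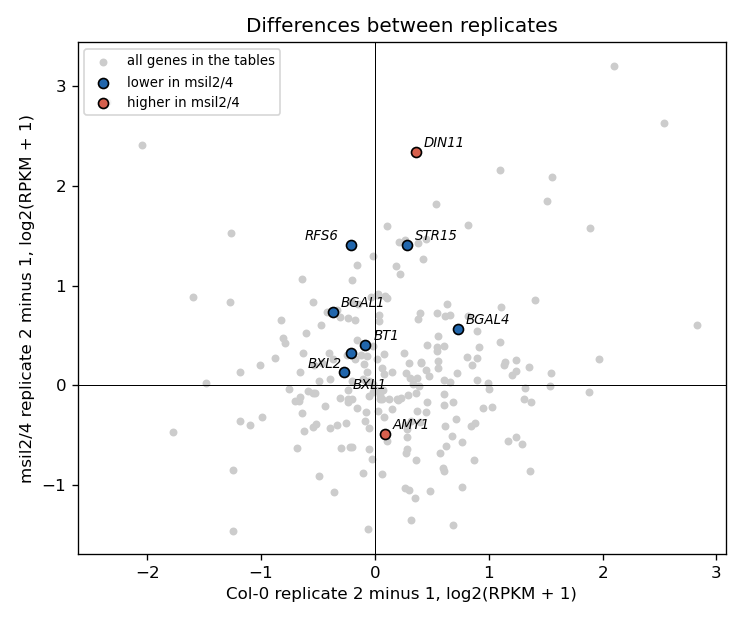
Difference between replicate 2 and replicate 1 on the scale of log2(RPKM + 1), in Col-0 (horizontal axis) against *msil2/4* (vertical axis), for all 234 listed genes (grey), with the 5 genes and their relatives in blue (lower in *msil2/4*) and red (higher in *msil2/4*). *DIN11* lies high at 0.36 and 2.34, *AMY1* is the only named gene below 0 on the vertical axis, and *BGAL4* is farthest to the right of the named genes at 0.73.

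The 5 genes lie on 3 chromosomes of the TAIR10.1 assembly in the RefSeq annotation. *BGAL4* spans positions 23003909 to 23009672 on the plus strand of chromosome 5, with 17 exons and a protein of 724 residues. *BXL1* spans 20011812 to 20016857 on the minus strand of chromosome 5, with 6 exons and 774 residues, and *BT1* spans 25333172 to 25335570 on the same strand and chromosome, with 5 exons and 365 residues in the transcript of longest coding sequence. *AMY1* spans 12851795 to 12853845 on the minus strand of chromosome 4, with 5 exons and 423 residues. *DIN11* spans 18393747 to 18397050 on the plus strand of chromosome 3, with 12 exons and 357 residues. The 3 genes that were lower thus share chromosome 5, but lie far apart on it. The 3′ end of *BGAL4* overlaps AT5G56880, which spans 23008764 to 23009709 on the opposite strand, so most of that gene lies within *BGAL4*. If strand was ignored in counting, reads from that stretch could have come from either gene. The 3′ end of *AMY1* overlaps the start of AT4G24990 on the same strand by a few bases. The libraries were made with a directional kit, and whether reads were counted by strand is not given in the sources used here.

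Because *BXL1*, *BXL2* and *BT1* ran in parallel and *AMY1* and *DIN11* opposed them, the 250 bases before the annotated start of each gene are shown for these and for *BGAL4*, read 5′ to 3′ on the strand of the gene from the TAIR10.1 assembly. Capitals mark exact matches on either strand to 1 of 4 motifs, the G-box CACGTG, the TATCCA element known from sugar-starved cereal alpha-amylase genes, the I-box GATAAG and the evening element AAAATATCT. None of these motifs overlaps another within the windows shown.
*BXL1*, chr5:20016858-20017107, minus strand: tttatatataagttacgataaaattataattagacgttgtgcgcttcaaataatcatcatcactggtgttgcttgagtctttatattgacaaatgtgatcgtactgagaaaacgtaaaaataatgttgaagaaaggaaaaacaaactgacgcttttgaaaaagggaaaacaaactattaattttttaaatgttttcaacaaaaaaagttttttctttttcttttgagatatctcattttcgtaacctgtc
*BXL2*, chr1:563768-564017, plus strand: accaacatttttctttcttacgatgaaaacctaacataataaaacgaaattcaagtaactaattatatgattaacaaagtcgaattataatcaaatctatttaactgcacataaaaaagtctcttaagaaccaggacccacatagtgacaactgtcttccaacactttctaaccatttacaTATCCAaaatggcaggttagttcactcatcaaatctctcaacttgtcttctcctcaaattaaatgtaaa
*BT1*, chr5:25335571-25335820, minus strand: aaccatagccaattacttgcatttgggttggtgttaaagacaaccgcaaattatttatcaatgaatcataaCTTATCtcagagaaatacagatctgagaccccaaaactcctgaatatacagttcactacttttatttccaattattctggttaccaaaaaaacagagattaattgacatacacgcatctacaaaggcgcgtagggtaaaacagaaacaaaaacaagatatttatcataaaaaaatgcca
*BGAL4*, chr5:23003659-23003908, plus strand: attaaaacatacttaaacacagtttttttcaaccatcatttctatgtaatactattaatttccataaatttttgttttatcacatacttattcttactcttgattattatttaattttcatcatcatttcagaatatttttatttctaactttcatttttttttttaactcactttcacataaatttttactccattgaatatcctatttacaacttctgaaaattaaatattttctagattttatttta
*AMY1*, chr4:12853846-12854095, minus strand: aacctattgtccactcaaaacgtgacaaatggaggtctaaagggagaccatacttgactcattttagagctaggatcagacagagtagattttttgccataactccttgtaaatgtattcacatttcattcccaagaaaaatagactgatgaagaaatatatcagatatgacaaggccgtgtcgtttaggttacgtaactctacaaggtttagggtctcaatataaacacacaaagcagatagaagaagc
*DIN11*, chr3:18393497-18393746, plus strand: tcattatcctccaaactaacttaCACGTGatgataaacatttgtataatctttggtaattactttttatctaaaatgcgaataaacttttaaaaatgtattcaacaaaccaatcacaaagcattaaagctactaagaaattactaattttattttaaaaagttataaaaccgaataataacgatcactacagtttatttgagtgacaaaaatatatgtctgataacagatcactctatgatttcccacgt

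*DIN11* has a G-box 227 to 222 bases before its start, *BT1* an I-box 179 to 174 bases before, on the opposite strand, and *BXL2* a TATCCA element 69 to 64 bases before. No match to the 4 motifs was found in the windows of *BXL1*, *BGAL4* and *AMY1*. The windows of *BXL1*, *BXL2* and *BT1* had none of these motifs in common. Among the other relatives, which are not shown, *STR15* has 2 I-boxes, at 96 to 91 and 35 to 30 bases before its start, and *RFS6* and *BGAL1* have no match. Of 27443 windows of the same length before protein-coding genes, 6.49% hold the G-box, 13.6% the TATCCA element, 12.3% the I-box and 2.36% the evening element. Of the 231 listed genes with a window, the shares are 7.36%, 13.9%, 19.0% and 3.90% in the same order. These matches are a description of the letters in the windows.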

How the data were processed

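Polyadenylated RNA from the basal stem section of mature plants was sequenced in 4 libraries, 2 of Col-0 and 2 of *msil2/4*, and genotypes and replicate numbers were taken from the sample titles. According to the paper's methods and the submitters' processing notes, single-end reads of 75 nt were aligned to TAIR10 with TopHat2 2.0.7 and Bowtie2 2.3.4, quantified with Cufflinks 2.2.1 and compared with Cuffdiff, whose version is not given in the sources used here. For each library the authors deposited an RPKM value, and 1 more per genotype, only for genes they called different. The tables also hold the authors' log2 fold changes, which were not used. Total reads per library are known only as stated, and read counts were not recovered from the values.

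The library values were transformed as log2(RPKM + 1) and fitted over all 234 listed genes with limma 3.58.1 in R 4.3.3, two-sided, with Benjamini-Hochberg adjustment and a threshold of 0.05. The fit was tested on simulated data with known changes and a spread drawn from the fit itself. Those genes were not selected for a difference as the listed genes were, so the test does not bear on the calls given here. The paper's checklist calls the replicates biological, and nothing in the labels says that they came from separate plants. The 5 genes, the gene lists and the settings were chosen with earlier results of these data known. Named were the 5 genes, every gene of the lists in a table and, for each of the 5, the 3 listed genes with the nearest profile. The tables hold no background of unselected genes. Coordinates and sequences came from the RefSeq TAIR10.1 assembly. Promoter windows were taken before the annotated gene start, which was available for 231 of the 234 listed genes. Motif shares were counted over these and over 27443 protein-coding genes. Shared runs of 75 bases were searched with blastn. Alternatives were pseudocounts of 0.1 and 0.01 RPKM, a minimum mean of 5 RPKM, a block for the replicate number, rescaling to the authors' value per genotype, a trend in the prior variance and leaving out each library.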

Additional observations from a re-analysis of the deposited data

How the results depend on the processing

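The direction of all 5 genes was the same under each of the 10 alternatives. Their libraries did not overlap between genotypes, so leaving out a library, a block or another pseudocount could not have turned it. That sameness is therefore no support for the direction. All listed genes had been selected for a difference, so the counts of calls given below are no support either. Without 1 library at a time, the difference on the log2 scale ranged from -2.80 to -2.07 for *BGAL4*, from -1.86 to -1.59 for *BXL1*, from -1.96 to -1.56 for *BT1*, from 2.01 to 2.50 for *AMY1* and from 2.82 to 5.16 for *DIN11*. With values rescaled to the authors' value per genotype, all 5 differences shifted downward by a similar amount. *BXL1* was at -1.89 instead of -1.72, a shift of more than 1 SD between its replicates. *BGAL4* was at -2.62 instead of -2.43 and *BT1* at -1.94 instead of -1.76. *AMY1* was at 2.09 instead of 2.26 and *DIN11* at 3.80 instead of 3.99. The numbers of listed genes called lower and higher, 78 and 154, ranged from 73 to 77 and from 139 to 152 without 1 library, and the list counts of 5 lower and 1 higher were the same in every alternative. With the replicate block, 78 and 156 genes were called. In that fit the standard error was 0.51 for each of the 5 genes, so it did not reflect the spread of each gene. With a minimum mean of 5 RPKM, which leaves the weaker genes out of the fit, 72 and 116 were called. Replicate 2 minus replicate 1 differences of the genotypes had a correlation of 0.07 over the 234 genes, so the numbers do not show a pairing of the libraries. Depth per library, and so the counting error of each value, is known only from the stated read number.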

Other observations

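Other genes of sugar use were also in the tables. They were named after their values were seen, so they are given as values without a test. Invertases split sucrose, and they stood on both sides. The cell wall invertase gene *ATBFRUCT1* (AT3G13790) was at 2.32 and 1.88 RPKM in Col-0, against 12.3 and 11.1 RPKM in *msil2/4*, while the alkaline/neutral invertase gene *INVC* (AT3G06500) was at 124 and 85.3 RPKM in Col-0 and at 33.1 and 38.3 RPKM in *msil2/4*. In the means, the first was 5.58-fold higher and the second 2.93-fold lower in the mutant. The AT5G62360 gene, of the plant invertase/pectin methylesterase inhibitor superfamily, whose members inhibit such enzymes and are not invertases themselves, was at 115 and 92.6 RPKM in Col-0 and at 16.2 and 14.8 RPKM in *msil2/4*. AT1G11362, of the same superfamily, was at 4.06 and 3.53 RPKM in Col-0 and at 0.50 and 0.28 RPKM in *msil2/4*. The libraries of the genotypes did not overlap for these 4 genes, as for 99.1% of all listed genes.

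*BZIP63* (AT5G28770), which encodes a transcription factor that the energy-sensing kinase SnRK1 phosphorylates, was at 61.8 and 58.7 RPKM in Col-0, against 21.9 and 24.1 RPKM in *msil2/4*, a 2.62-fold lower mean with replicates within 1.10-fold of each other. It was thus lower together with *BGAL4*, *BXL1*, *BT1*, *STR15* and *RFS6*. *SBE3* (AT3G20440), named for starch branching enzymes, was at 1.91 and 2.10 RPKM in Col-0 and at 4.22 and 8.74 RPKM in *msil2/4*, and so lay with *AMY1* among the higher genes.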
